A study of Mus musculus with 5 samples.

Results

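The MYC, MYCL and MAX network is a small family of DNA-binding proteins, and its transcripts were followed through 5 days of osteoclast formation. The members are 10 genes of 22180 with a row of their own on the array: Myc, Mycl, Mycn, Max, Mxd1, Mxi1, Mxd3, Mxd4, Mnt and Mlx. They were chosen by name, as rows whose platform annotation gives exactly 1 gene, and Mxi1, the member with several rows, is read from its brighter row. Mycl was included because of its day 1 value, so its difference of day 1 from day 0 is a description and supports nothing further. Bone marrow cells of wild-type mice aged 10 weeks were grown on plastic with 20 ng/ml M-CSF, which sustains macrophages, and 30 ng/ml RANKL, which drives osteoclast formation. RNA was taken at day 0, when the cells were bone marrow-derived macrophages, at days 1, 2 and 3 of differentiation, and at day 5 from cells labelled mature osteoclasts. Each day had 1 array, so no difference has a replicate check, no test was run and no p-value is given. The same genotype and the same culture are listed for all days, day 0 included, although day 0 is the start of differentiation. No array of macrophages kept without RANKL over the same days is used here. Time in culture, the addition of RANKL and differentiation therefore cannot be told apart. The number of mice behind each array is not stated in the labels.

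MYC, MYCL and MYCN activate transcription as pairs with MAX, which binds the E-box CACGTG through a basic helix-loop-helix leucine zipper. MXD1, MXI1, MXD3, MXD4 and MNT compete for MAX at the same element and recruit SIN3 corepressor complexes, so the balance of the members is thought to set whether E-box genes are driven or silenced. MLX, a MAX-like protein, pairs with the glucose-responsive factors MondoA and ChREBP and with some of the antagonists. MYC is known for driving ribosome production, nucleotide synthesis and growth, and osteoclast precursors need it to form osteoclasts. In mouse dendritic cells L-MYC, the product of Mycl, takes over from MYC.

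The E-box is printed first because it is the element the whole network reads. RefSeq promoter windows of GRCm38.p6, from 250 bases before to 50 bases after a transcript start, matched 9 of the 10 members, all but Myc. CACGTG, which reads the same on both strands, was in the windows of 4 of these 9 genes, Max, Mxd4, Mnt and Mlx, or 44.4%. Over all 27025 genes with a window it was found in 8.09%. The stretches below run 5′ to 3′ on the gene's strand, with the E-box in capitals and 12 bases on each side.
Max: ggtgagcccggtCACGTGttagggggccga
Mxd4: gggctgggccacCACGTGctgttgctaagc
Mnt: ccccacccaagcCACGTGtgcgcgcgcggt
Mlx: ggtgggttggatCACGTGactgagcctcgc
They lie at chr12:76962234-76962263 (minus strand), chr5:34187912-34187941 (minus strand), chr11:74830789-74830818 (plus strand) and chr11:101087238-101087267 (plus strand). The E-box of Max spans the annotated start, and those of Mlx, Mnt and Mxd4 begin 40, 123 and 219 bases before it. A match is a run of letters and not a measured binding site.

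Values are log2 array values, and a difference is the later day minus the earlier one. A gene is called measured when its mean over the days was at or above 4.89, the median of all rows, which 12049 genes were. Of the members 9 passed, and Mycn did not. Mycl passed through days 1 to 5 alone, since its day 0 value lay below that level, so it could hardly have passed without differing. Array medians lay between 4.88 and 4.92. As a yardstick of noise, the difference of day 1 from day 0 had an SD of 0.32 for a single row, from 500 genes with at least 2 measured rows. It was 0.42 for day 5 against day 0 and 0.41 for day 5 against day 1. This yardstick does not cover the spread between cultures. All 11 osteoclast markers lay more than 2-fold higher at day 5 than at day 0 (median difference 6.0), and all 9 macrophage markers stayed above the level filter on every array. These macrophage markers were below day 0 in median on each later day, with 4 of 9 at least 2-fold lower at day 1 (median -0.79), 5 at day 2 (median -1.13), 3 at day 3 (median -0.82) and 2 at day 5 (median -0.48). Fcgr1, a receptor for antibodies, was at 7.14 at day 1, against 10.75 at day 0, and Mertk, a receptor for dying cells, at 7.24, against 10.07. The part of these cells in the members' differences was not tested.

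Some members differed from day 0 by 2-fold or more at day 1 and most did not. At day 1, Mycl and Myc lay 2-fold or more above day 0 and Mxd4 lay 2-fold or more below it, while 6 of the 9 measured members were neither. Mycl was chosen for this comparison, so its place in the count was set beforehand. Among all measured genes 2.91% were that much higher at day 1 and 4.17% that much lower. The median difference over the members was 0.23, beside 0.00 over all measured genes. In bulk RNA of this kind fewer cells that carry a transcript and less of it per cell cannot be told apart.

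**Figure D1:**
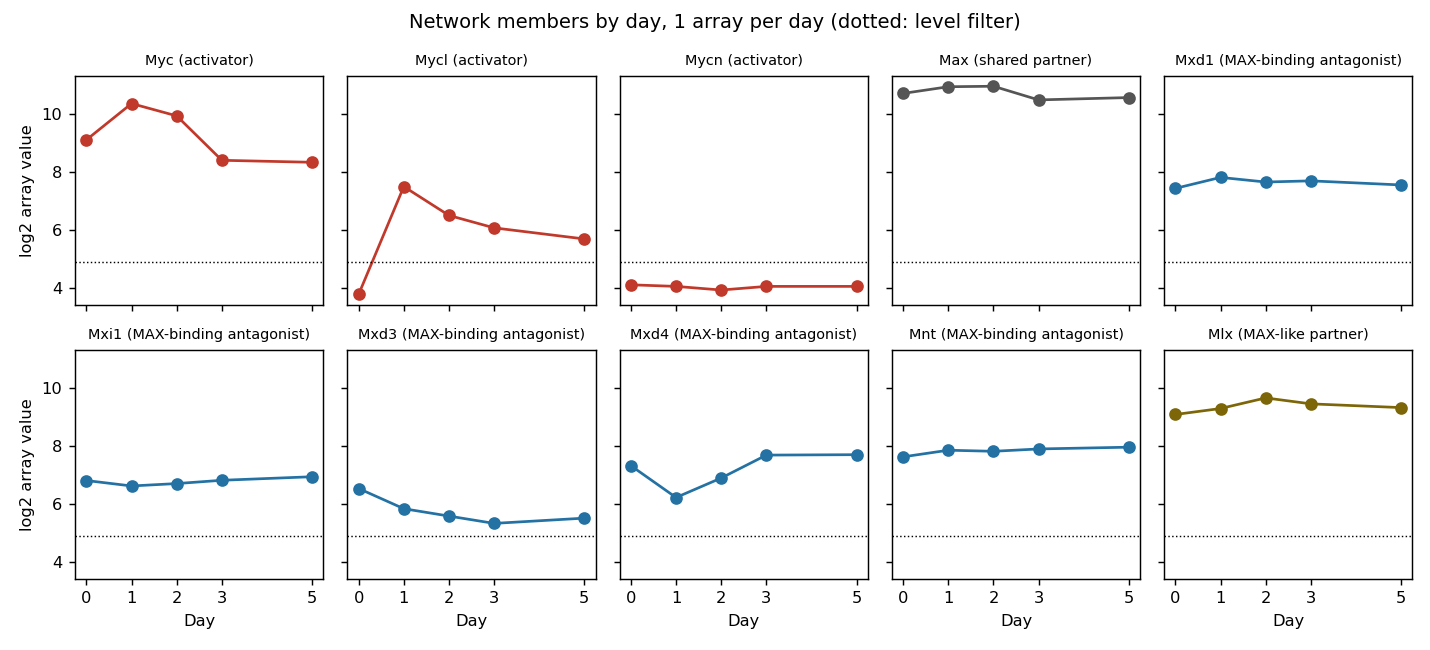
Log2 array value (y) against day of culture (x) for the 10 network members, with 1 array per day and the level filter of 4.89 dotted. Mycl and Myc are highest at day 1, Mxd4 is lowest at day 1, Mxd3 is highest at day 0, and the other panels show narrower ranges.

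Mycl, the L-MYC gene on chromosome 4, was the widest mover. Its log2 value was 3.78 at day 0, 7.50 at day 1, 6.50 at day 2, 6.07 at day 3 and 5.69 at day 5. Day 1 stood highest, every later day lay below the day before it, and all of them stayed above day 0. The value at day 1 was 3.72 above day 0, which is 13.2-fold, and only 5 measured genes had a greater increase in that comparison. On the day 0 array 19.9% of all rows had a lower value than Mycl, so the starting level is near the lower end of the scale, where array differences are compressed. Set against the level filter instead of its own day 0 value, day 1 was 2.61 higher, or 6.12-fold.

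The steps of Mycl after day 2 use neither of the values that chose it. Day 3 differed from day 2 by -0.43 and day 5 from day 3 by -0.38, against single-row SDs of 0.29 and 0.22 for these steps, so each lay past the yardstick by less than 2 SDs. The differences that use day 1 or day 0 share a value with that choice and are given as a description. Day 2 differed from day 1 by -0.996, and day 5 was 1.81 below day 1, where 6.73% of measured genes were at least 2-fold lower. Day 5 was 1.91 above day 0, but against the level filter it was 0.80 higher, or 1.75-fold, which is short of 2-fold. For day 5 against day 0, 6.78% of measured genes were at least 2-fold higher.

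The 250 bases before the Mycl start are shown because Mycl is the member with the widest range. They lie at chr4:122995681-122995930 on the plus strand.
Mycl: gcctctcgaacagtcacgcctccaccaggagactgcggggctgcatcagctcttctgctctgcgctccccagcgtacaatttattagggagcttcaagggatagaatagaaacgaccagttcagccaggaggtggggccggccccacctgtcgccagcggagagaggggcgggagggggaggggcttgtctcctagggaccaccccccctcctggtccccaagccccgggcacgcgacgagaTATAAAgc
The capitals mark TATAAA, whose first base lies 8 bases before the annotated start, and 15.7% of all genes hold these letters on either strand of their window. The letters CACGTG and the AP-1 motif TGANTCA, searched on both strands over the 300 bases of the window, were not in it. They are in the windows of 8.09% and 8.97% of genes.

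Myc, on chromosome 15, was highest at day 1, the day for which Mycl was chosen. Its value was 9.11 at day 0, 10.37 at day 1, 9.94 at day 2, 8.41 at day 3 and 8.34 at day 5. Day 1 was 1.25 above day 0, or 2.38-fold, and day 2 was still 0.83 above day 0. The drop came between days 2 and 3, where day 3 was 1.53 lower, or 2.89-fold, and only 150 of the 12049 measured genes had a lower difference. In that step 3.91% of measured genes were at least 2-fold lower. Day 5 differed from day 3 by -0.07, within the single-row SD of 0.22. Myc at day 5 was 2.03 below day 1, a 4.08-fold difference, and 0.78 below day 0, which is short of 2-fold. With arrays centred on the median level of a list of reference (housekeeping) genes, the day 5 difference from day 0 was -1.27. With arrays centred on the median change of those genes it was -0.80. The 12 measured reference genes themselves had a median difference of 0.01 for day 5 against day 0. Myc was thus lower at day 5 than at day 1 and ended below its day 0 value, by less than 2-fold in the deposited values. Mycl too was lower at day 5 than at day 1, and it stayed above day 0, but the values of days 1 and 0 chose it. Its course is therefore a description and is not set against that of Myc.

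Mycn, the gene of N-MYC, which is best known from neural and embryonic cells, stayed under the level filter throughout. Its values were 4.11, 4.05, 3.93, 4.05 and 4.05 at days 0, 1, 2, 3 and 5. They spanned 0.18, and 3 of the 5 arrays gave the same value to 2 decimals. No change was detectable at this level.

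Max, the common partner of the activators and the antagonists, was within 2-fold of day 0 throughout. It was at 10.72, 10.95, 10.96, 10.49 and 10.57 at days 0, 1, 2, 3 and 5. The range of 0.47 is narrower than the median range of 0.59 over all measured genes. Its widest step was between days 2 and 3, with a difference of -0.47, past the single-row SD of 0.29 for that step, in which Myc had its difference of -1.53. Mlx gave 9.09, 9.30, 9.66, 9.46 and 9.33 on the same days. It was highest at day 2, 0.57 above day 0, with day 5 within 0.24 of day 0.

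Among the antagonists, Mxd1, Mxi1 and Mnt had the narrowest ranges. Mxd1, whose product marks cells that leave the cycle and differentiate, was at 7.44 at day 0, 7.82 at day 1, 7.66 at day 2, 7.70 at day 3 and 7.56 at day 5. Mnt, the broadly expressed antagonist, had 7.63, 7.86, 7.82, 7.90 and 7.96 on those days. Mxi1 read 6.81, 6.62, 6.71, 6.82 and 6.94, and its dimmer row 6.10, 6.23, 6.23, 6.25 and 6.28. The rows of Mxi1 disagreed in sign for day 1 against day 0, at -0.19 in the brighter and 0.13 in the dimmer, both within the yardstick. The ranges of these 3 genes, 0.38 for Mxd1, 0.33 for Mnt and 0.32 for Mxi1, were exceeded by 69.8%, 74.7% and 75.9% of measured genes.

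Mxd4 was lowest at day 1, the day on which Myc was highest. Its value was 7.32 at day 0, 6.23 at day 1, 6.90 at day 2, 7.69 at day 3 and 7.70 at day 5. Day 1 was 1.10 below day 0, or 2.14-fold lower. Day 5 was 1.48 above day 1, a 2.79-fold difference in a comparison where 6.3% of measured genes were at least 2-fold higher. It was 0.38 from day 0, or -0.11 after scaling to the reference genes' median level and 0.36 after scaling to their median change. The ascent was spread over the steps from day 1 to day 2 (0.67) and from day 2 to day 3 (0.79), and day 5 then lay 0.01 from day 3.

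Mxd3, the antagonist that is transcribed in cycling cells, was highest at day 0. It gave 6.54, 5.84, 5.58, 5.33 and 5.51 at days 0, 1, 2, 3 and 5. Day 1 was 0.70 below day 0, day 3 was 1.20 below, and day 5 was 1.02 below, just past 2-fold, or -0.985 with arrays centred on the median of measured genes. For day 5 against day 0, 6.56% of measured genes were at least 2-fold lower. No single step after day 1 exceeded the yardstick, with -0.25 between days 1 and 2 and again between days 2 and 3, and 0.18 between days 3 and 5.

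Over the whole course, Mycl was the 1 measured member at least 2-fold higher at day 5 than at day 0. Mxd3 was the 1 at least 2-fold lower, and 7 were neither. Of all measured genes 6.78% were that much higher and 6.56% lower, so a count of 1 in either direction says little. The count for Mycl rests on its day 0 value below the level filter, and against that filter day 5 was 1.75-fold higher. Against day 1, Mxd4 was higher at day 5, Myc and Mycl were lower, and 6 were neither. In that comparison 6.3% of measured genes were at least 2-fold higher and 6.73% lower, and the day 1 value is one that chose Mycl. The median over the members was 0.13 for day 5 against day 0 and -0.26 for day 5 against day 1, beside 0.00 over all measured genes in both. Across the 4 steps between sampled days, 4 member differences reached 2-fold, 3 of them in the first step and Myc alone between days 2 and 3. The first-step count includes Mycl, which was chosen for that step. In the first step 2.91% of measured genes were that much higher and 4.17% lower. Between days 2 and 3, 3.91% were that much lower. The other 2 steps had none, and 3.02% and 0.274% of measured genes differed by 2-fold in either direction between days 1 and 2 and between days 3 and 5. The median difference of the 5 antagonists from day 0 was -0.19, -0.10, 0.26 and 0.13 at days 1, 2, 3 and 5. The Myc difference lay 1.44 above that median at day 1, 0.93 above it at day 2, and had a gap of -0.97 at day 3 and -0.91 at day 5. For Mycl the gap was 3.91, 2.83, 2.04 and 1.78 on those days. These Mycl gaps all use the day 0 value on which its choice rests, so they are a description only.

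**Figure D2:**
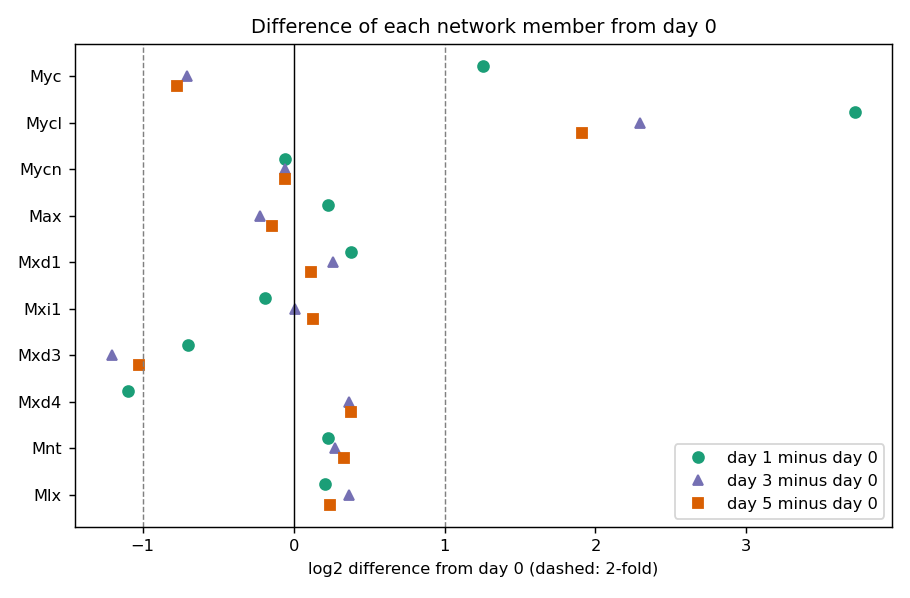
Log2 difference of each member (rows) from day 0 at day 1 (circles), day 3 (triangles) and day 5 (squares), with dashed lines at 2-fold. Mycl lies right of the upper line on all 3 days, and Myc lies right of it at day 1 and left of 0 afterwards. Mxd4 is at -1.10 at day 1 and at 0.38 at day 5. The day 5 value of Mxd4 was -0.11 after scaling to the reference genes' median level and 0.36 after scaling to their median change.

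Most measured genes of a list that MYC is known to activate were higher at day 1 than at day 0, and 33 of 34 were lower at day 5 than at day 1. At day 1, 13 of 34 measured genes of that list were at least 2-fold higher than at day 0, 1 was lower and 20 were neither, with a median of 0.82 and 31 of 34 above 0. Of all measured genes 2.91% were that much higher and 4.17% lower. Dkc1, the dyskerin gene of ribosomal RNA modification, was at 10.02 at day 1, against 8.53 at day 0. Ccnd2, the cyclin D2 gene, was the 1 at least 2-fold lower, at 5.39 at day 1, against 8.42 at day 0. Hk2 (-0.32) and Tfrc (-0.13) were below day 0 by less. At day 2 the median was 0.70, with 11 genes higher than at day 0 and 1 lower, where 5.18% of all measured genes were that much higher and 5.25% lower. The list entry Eif2s1 was read, through a synonym, from a row named Eif2a, which may be another gene. That row differed by 0.14 at day 1 against day 0 and by -0.24 at day 5 against day 1.

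At days 3 and 5 the list had left its peak. Its median was -0.24 at day 3 and -0.27 at day 5 against day 0. After scaling to the reference genes' median level the day 5 value was -0.76, and after scaling to their median change it was -0.29. At 2-fold, 1 gene was higher and 2 were lower at day 3, and 1 was higher and 3 were lower at day 5. At day 3 the share of all measured genes past 2-fold was 7.29% upward and 7.5% downward, and at day 5 it was 6.78% and 6.56%. Against day 1, 18 of the 34 were at least 2-fold lower at day 5, 1 was higher and 15 were neither, with a median of -1.11. In that comparison 6.73% of all measured genes were that much lower and 6.3% higher. The higher gene of the list was Tfrc, the transferrin receptor, which was at 11.05 at day 5, against 8.62 at day 0. Ccnd2 was at 5.11 at day 5, against 8.42 at day 0, and Nop58, a core protein of small nucleolar ribonucleoproteins, was at 8.94 at day 5, against 9.97 at day 0. Cad, the enzyme that begins pyrimidine synthesis, was the third lower gene, with a difference of -1.01. Of the 40 list entries 34 had a promoter window, and 10 of these held CACGTG, or 29.4%, beside 8.09% of all genes.

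Genes that MYC is known to repress were mostly within 2-fold of day 0. At day 1, 0 of 10 measured ones were at least 2-fold higher, 2 were lower and 8 were neither, with a median of -0.25 and all 10 below 0. The 2 lower ones encode myeloid transcription factors, Cebpd at 7.0 at day 1, against 8.18 at day 0, and Cebpa at 7.12, against 8.20. At day 5, Cdkn2b, an inhibitor of cyclin D kinases, was at 8.42, against 6.88 at day 0, and was the 1 higher gene. Ccnd1, the cyclin D1 gene, was at 8.35 at day 5, against 10.91 at day 0, and was the 1 lower gene. Cdkn1a, the p21 gene, differed by -0.998, just short of 2-fold. The median was -0.28 at day 5 against day 0 and 0.43 at day 5 against day 1. Of all measured genes 2.91% were at least 2-fold higher than day 0 at day 1 and 4.17% lower. At day 5 these shares were 6.78% and 6.56%.

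Proliferation genes were within 2-fold of day 0 at days 1 and 2 and lower at days 3 and 5. Of 14 measured genes, 0 differed by 2-fold at day 1 or at day 2, with medians of 0.23 and -0.14 against day 0. Of all measured genes 2.91% were at least 2-fold higher and 4.17% lower at day 1. At day 2 the shares were 5.18% and 5.25%, so counts of 0 among 14 say little. At day 3 all 14 were at least 2-fold lower, with a median of -1.85, and at day 5 all 14, with a median of -1.74. Over all measured genes the share that much lower was 7.5% at day 3 and 6.56% at day 5. The mitotic genes Cdk1 and Birc5 had the largest differences at day 1, 0.57 and 0.50. At day 5 Aurkb (-2.16), a mitotic kinase, Mcm5 (-2.13), a replicative helicase subunit, and Top2a (-2.03), a topoisomerase, were furthest below day 0. The part of proliferation in the differences of Myc, Mxd3 and the MYC-activated genes was not tested.

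**Figure D3:**
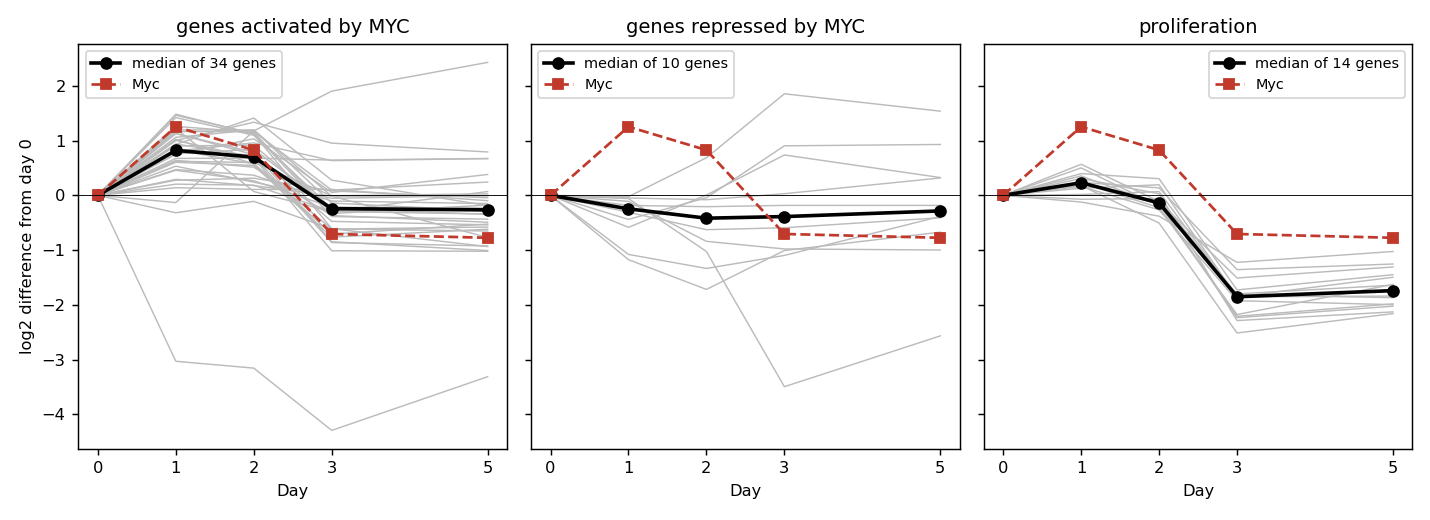
Log2 difference from day 0 (y) by day (x) for the measured genes of 3 lists (grey lines), their median (black) and Myc (red, dashed). The MYC-activated median is 0.82 at day 1 and -0.27 at day 5, and the proliferation median is -1.85 at day 3.

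Most cofactors of the network lay within 2-fold of day 0 and of day 1. Of 19 measured cofactors 0 differed by 2-fold at day 1, with a median of 0.19, and at day 5 against day 0, 1 was lower and 18 were neither, with a median of -0.36. Ruvbl2, an ATPase of chromatin complexes that bind MYC, was 0.86 above day 0 at day 1. Bin1, an adaptor that binds MYC and also bends membranes, was the lower one, at 8.65 at day 5, against 10.32 at day 0, with -0.81 already at day 1. The deacetylase gene Hdac1 (-0.85) and the acetyltransferase gene Kat2a (-0.80) followed at day 5. At day 2, Hdac2, another deacetylase gene, was the 1 higher cofactor (1.06) and Bin1 the 1 lower (-1.22). At day 5 against day 1, 3 cofactors were at least 2-fold lower, Kat2a (-1.38), Ruvbl2 (-1.34) and its partner gene Ruvbl1 (-1.17), and 16 were neither. Of all measured genes 2.91% were at least 2-fold higher than day 0 at day 1 and 4.17% lower. These shares were 5.18% and 5.25% at day 2, and 6.78% and 6.56% at day 5. For day 5 against day 1 they were 6.3% and 6.73%.

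Regulators of MYC protein stability had 0 of 16 measured genes past 2-fold at day 1, with a median of 0.03. The largest differences there were those of Set (0.83), an inhibitor of the phosphatase PP2A, and the deubiquitinase gene Usp36 (0.75). At day 5, 1 was higher than at day 0 and 4 were lower, and the list's median was -0.03. Of all measured genes 6.78% were that much higher and 6.56% lower at day 5, and 2.91% and 4.17% at day 1. The ubiquitin ligase gene Fbxo32 was the higher one (1.62), and the kinase gene Plk1 (-1.91) and Cip2a (-1.89), whose product protects MYC from PP2A, were the lowest. Plk1 belongs to mitosis as well. Aurka (-1.57) and Skp2 (-1.10) were the others of the 4 lower genes. Between days 2 and 3 these 4 differed by -1.46 (Plk1), -1.49 (Cip2a), -1.51 (Aurka) and -1.20 (Skp2). The proliferation list had a median of -1.94 in that step. The part of proliferation in the differences of these genes was not tested.

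Among 20 measured genes that control Myc transcription or its mRNA, 1 was at least 2-fold higher at day 1, 2 were lower and 17 were neither, with a median of 0.03. Prdm1, the Blimp1 gene, whose product represses Myc in B cells, was the higher one, at 9.35 at day 1 and 9.71 at day 5, against 7.15 at day 0. Zfp36l1, whose product promotes decay of AU-rich mRNAs, was at 7.87 at day 1 and 8.55 at day 5, against 9.49 at day 0. The Wnt effector gene Tcf7l2 was lower too, by 1.13 at day 5 against day 0. At day 5 against day 0 the median of this list was -0.38, and 18 of the 20 were within 2-fold. Of all measured genes 2.91% were at least 2-fold higher and 4.17% lower at day 1, and 6.78% and 6.56% at day 5.

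The MLX and MondoA targets are a list of 4 measured genes. Of these 0 differed by 2-fold at day 1 or day 5, with medians of -0.07 and 0.07 against day 0. Over all measured genes 2.91% were that much higher and 4.17% lower at day 1, so a count of 0 among so few says little. Txnip, the thioredoxin-binding arrestin that reports on glucose through MondoA, was at -0.53 at day 1, past the yardstick of 0.32, and its relative Arrdc4 at 0.32. At day 5 Arrdc4 was at 0.48, the KLF factor gene Klf10 at -0.20 and the triose kinase gene Tkfc at 0.15. Mlxip, the MondoA gene, was 0.76 above day 0 at day 3 and 0.50 above it at day 5.

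Other helix-loop-helix zipper factors that bind E-boxes were mostly within 2-fold of day 0. Of 9 measured genes 1 was at least 2-fold higher at day 1 and 8 were neither, with a median of -0.03, and at day 5 against day 0 all 9 were neither, with a median of -0.09. The higher one was Tfap4, a known MYC target, with values of 6.36, 7.77, 7.23, 6.06 and 6.18 at days 0, 1, 2, 3 and 5. The sterol regulator gene Srebf2 was at -0.99 at day 1 and -0.64 at day 5. Tfe3 and Tfec, relatives of the osteoclast factor MITF, were at -0.44 and 0.33 at day 5. Of all measured genes 2.91% were at least 2-fold higher and 4.17% lower at day 1, and 6.78% and 6.56% at day 5.

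The genes whose course came nearest to that of Mycl were found by the root mean square difference over the 5 days, after each gene's own mean was subtracted. They were Vegfc, a lymphatic growth factor (0.21), Gpr132, a receptor for lipids and lactate (0.24), the glutathione transferase gene Gstt4 (0.36), the proteoglycan gene Dcn (0.37) and the anion transporter gene Slco4a1 (0.45). Vegfc had 6.28, 10.01, 9.46, 8.78 and 8.70 at days 0, 1, 2, 3 and 5. Only 9 of 12040 measured genes lay within 0.5 of Mycl. Dcn is also a stromal marker, with 5.20, 8.45, 8.44, 7.99 and 7.13 on those days. The summed level of 6 stromal markers was 8.87 at day 1 and 8.07 at day 5 on the log2 scale, against 7.29 at day 0. Of the others, Col1a1 lay between 5.06 and 5.38, Pdgfrb between 4.55 and 5.23, and Col1a2, Pdgfra and Lum stayed below the level filter on every array.

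For Myc, 752 of 12040 measured genes lay within 0.5. This distance grows with a gene's range, and 0.722% of measured genes had a wider range than Mycl and 6.04% a wider one than Myc, so these counts are not set against each other. The nearest to Myc were the small nucleolar RNA Snora69 (0.064), the ribosome assembly gene Nop16 (0.064), the small nucleolar RNA host gene Snhg7 (0.074), the small nucleolar RNA Snord22 (0.081) and Cad (0.082). Nop16 had 10.14, 11.35, 10.82, 9.27 and 9.29 at days 0, 1, 2, 3 and 5. Cad had 8.17, 9.30, 8.96, 7.32 and 7.16. Cad was on the list of MYC-activated genes already.

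**Figure D4:**
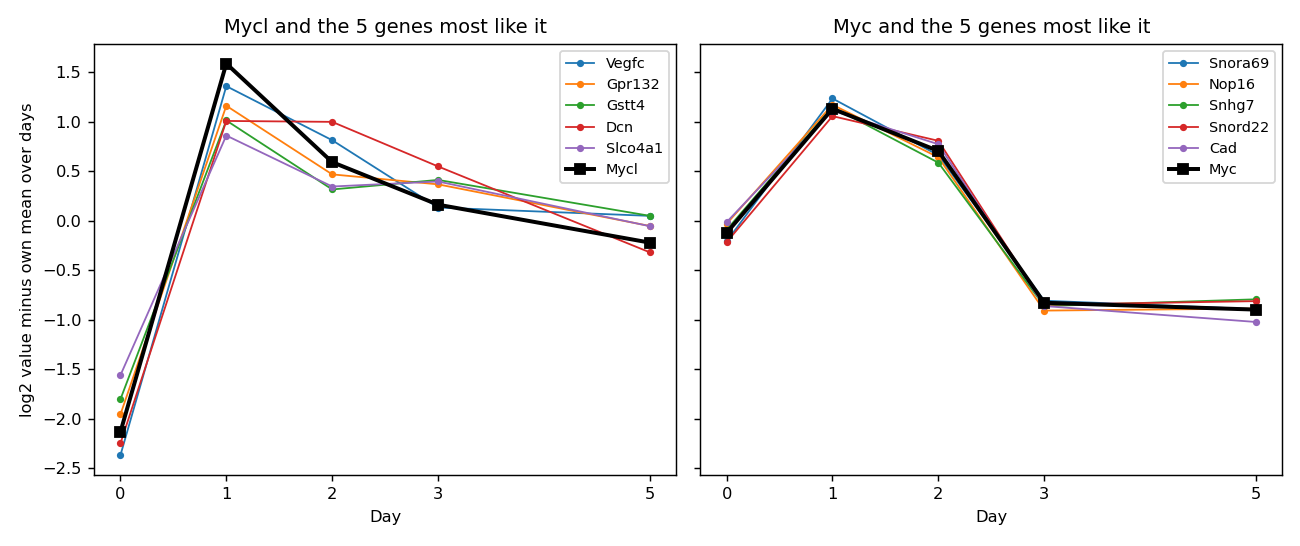
Log2 value minus the gene's own mean over the days (y) by day (x), for Mycl (left) and Myc (right) in black and the 5 genes nearest to each in colour. The neighbours of Mycl share its high value at day 1 and its low value at day 0, and those of Myc share its drop between days 2 and 3. They were picked for nearness on these same days, so the shared shape follows from the choice.

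Markers of other cells were checked beside these values. Of 6 T and NK cell markers 0 reached the level filter on any array, and their summed log2 level lay between 6.61 and 6.77. Granulocyte markers were above it for 7 of 8 genes at days 0 to 3 and for 6 at day 5, with a summed level of 10.78 at day 1 and 9.50 at day 5, against 10.61 at day 0. The 4 B cell markers summed to between 6.41 and 6.50, the 5 dendritic cell markers to between 7.88 and 8.22 and the 5 endothelial markers to between 7.63 and 8.41. The erythroid, megakaryocyte and mast cell markers had 2 of 6 above the filter, and Pf4, a platelet chemokine, was the brightest at 11.03 to 12.23. The other was Gp9, at 5.69 to 5.82, while Klf1, Itga2b, Cpa3 and Tpsb2 stayed below the filter on every array. The part of these cells in the members' differences was not tested.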

How the data were processed

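The authors deposited log2 values. RMA, the oligo package and R 3.4.0 are named for them per the submitters' processing notes. Their summary level, annotation and genome build were not stated in the sources used here. RMA brings all arrays to a shared distribution, so a shift of all genes cannot be seen. The table held 41345 rows, of which 23521 name 1 gene in the platform annotation, 1814 several and 16010 are unnamed here; the last 2 kinds were left out. A gene with several rows was read from its brightest row by mean over the 5 arrays, which left 22180 genes.

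Differences are between single arrays, counted at 2-fold, with no test. The members, the 18 gene lists (222 entries, 21 without a row analysed here) and the rules were chosen with earlier results of these data known. A list entry without a row under its own symbol was matched through RefSeq synonyms where these gave a single row symbol. Named genes are the members, per list the 2 largest differences at day 1 and the 3 largest at day 5 against day 0, and the 5 genes nearest to Mycl and to Myc. Other genes named, such as calls of a list and markers, were chosen after their values were seen. Counting and likeness were tested on simulated data. Promoter sequences are from RefSeq, GRCm38.p6. The number of arrays limits the precision. Alternatives covered scaling, rows, filters, size and days. Python 3.11.15, numpy 2.4.6, pandas 2.3.3 and matplotlib 3.10.9 were used.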

Additional observations from a re-analysis of the deposited data

How the results depend on the processing

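With 3 alternative scalings, the mean of a gene's rows, no level filter, a filter at the 75th percentile and a 1.5-fold size, and with other days, 46 of 52 values (counts of members, medians of the MYC-activated list, row disagreement) stayed within 1.5 times the main count or within the single-row SD of the main median. Within that tolerance, members apart at day 1 numbered 2 to 4 in place of 3, the MYC-activated median at day 1 lay between 0.61 and 0.87, and that of day 5 against day 1 between -1.39 and -1.02. The count of members apart at day 5 against day 0 was 1 with arrays centred on the median of measured genes, where Mxd3 missed 2-fold, and 0 under the stricter level filter, which leaves 6 members and drops Mycl and Mxd3. At a 1.5-fold size 8 member steps were counted in place of 4. Subtracting from each array the reference genes' median level moved day 5 against day 0 by 0.49 for all genes, while those 12 genes had a median difference of 0.01. The median of MYC-activated genes then became -0.76, Mycl stood at 1.42, Myc at -1.27, past 2-fold, and Mxd3 at -1.51. Mxd1 (-0.37), Mxi1 (-0.36), Mxd4 (-0.11), Mnt (-0.16) and Mlx (-0.25) changed sign there. Centring on the median change of those genes, added after the data were seen, shifted nothing by more than 0.06. Day 1 in place of day 0 gave the MYC-activated median of -1.11. The SD of disagreement between rows for day 5 against day 0 was 0.59, and 0.32 over the 147 genes above the 75th percentile. Of 120 member differences under an alternative, 110 moved by less than the single-row SD, and the 10 that moved more are those of the 0.49 shift. Each scaling moves every member by the same amount, and the mean of rows can change only Mxi1. The 120 differences are therefore not separate checks. By Pearson correlation in place of distance, 0 of the 5 nearest genes were shared for Mycl and 0 for Myc. A size choice could not apply to list medians or row disagreement, nor scaling to the latter. No paired analysis was possible because each day has 1 array. Genes near the lower end of the scale, Mycl at day 0 and Mycn throughout, are those whose differences are least certain.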
